A study of Rattus norvegicus with 7 samples.

Results

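The inflammatory cytokine and colony stimulating factor genes Il1a, Il1b, Tnf, Il6, Lif, Clcf1, Il23a, Tslp, Csf1 and Csf3 were chosen by name. Earlier results of these data were known at that choice. Every probe set, that is, every set of short probes on the array that together measure 1 transcript, was taken where the annotation gave the symbol of 1 of these 10 genes and no other symbol. This rule found 15 of the 31099 probe sets: 4 for Csf1, 2 each for Il1a and Tnf, and 1 for each of the other genes. The cells were ROE2, an immortalized line from the tongue epithelium of Wistar rat fetuses of 18 days that carried a temperature-sensitive SV40 large T-antigen gene, tsSV40 [pSVtsA58ori(-)-2], so the vehicle and the treated cells shared this transgene and a single line of origin. They were given sterilized water as vehicle or sodium fluoride (NaF) at 2 mM. RNA was taken from vehicle at 0, 3, 6 and 12 h and from NaF at 3, 6 and 12 h, where the 0 h array is labelled only as control and its time comes from the methods. Each of the 7 arrays held RNA pooled from 3 independent experiments, so no combination of treatment and time had a replicate array. The question addressed was which genes NaF changed while it caused cell death in oral epithelium.

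Cytokines are secreted proteins that carry signals between cells. IL-1α, which epithelial cells store and release when damaged, and TNF act through receptors that activate the transcription factor NF-kB, and NF-kB in turn drives the transcription of many cytokine genes. IL-6, LIF and the product of Clcf1 share the receptor chain gp130, IL-23 steers lymphocytes toward IL-17 production, TSLP is an epithelial alarm signal to dendritic cells, and the colony stimulating factors act on macrophages and neutrophils.

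The log2 signals of all 7 arrays were already on one scale, with array medians between 5.32 and 5.35. The vehicle arrays correlated with one another at 0.9961 to 0.9987 over all probe sets. The actin control was less even: its 3' minus its 5' log2 signal ran from 1.53 in vehicle at 6 h to 2.83 in vehicle at 3 h. It was 2.39 in NaF at 3 h, and the part of this difference in the results was not tested. A probe set was tested where its log2 signal was 7 or more on at least 1 array, which left 11745 probe sets. Limma set each NaF array against the 4 vehicle arrays, with Benjamini-Hochberg adjustment over all tested probe sets and a call at an adjusted p under 0.05. The error of these comparisons came from the spread of the vehicle arrays alone, on the assumption that a NaF array would spread as much. A second measure, the NaF array minus the vehicle array of the same time, has no replicate and is given without a test. Where a gene had several probe sets, its value is that of the tested one with the highest mean signal. Of 19 listed epithelial markers, such as keratin and desmosome genes, 17 had log2 signals of 7 or more in vehicle. The keratin genes Krt18 and Krt19 did not, with vehicle means of 2.98 and 3.06. Of 18 leukocyte markers on the array only Cd14 and S100a9 were bright enough to be tested, of 12 fibroblast markers only Vim, of 9 endothelial markers only Egfl7 and of 8 mast cell and basophil markers none. Ptprc, the defining leukocyte gene, lay at 3.03 to 3.25 in vehicle and 3.20, 2.85 and 3.27 in NaF.

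At 12 h of NaF, Il6, Il23a, Tslp, Tnf, Clcf1, Il1a and Csf3 rose, Csf1 fell, and Lif and Il1b were too dim to be tested. Over all tested probe sets 29.7% were called higher and 30.8% lower at this time, so 7 rises and 1 fall among these genes stand beside a background in which both directions were about as frequent. At 6 h Il6, Tslp, Tnf and Il23a rose, where 16.9% of all tested probe sets were called higher, and Csf1 fell, where 21.5% were called lower. At 3 h Tnf, Il6, Tslp and Clcf1 rose, where 2.88% were called higher. None of the genes was called lower by limma at 3 h, where 5.91% of all tested probe sets were, although 1 of them, Csf1, was lower at an unadjusted p under 0.05. Il6, Tslp, Tnf and Clcf1 reached a log2 signal of 7 only on NaF arrays, so their passing of the filter already required a difference, and their share among the rises cannot be read as evidence. Il1a, Il23a, Csf1 and Csf3 passed it on vehicle arrays as well, and 3 of these 4 rose at 12 h. These 4 too were chosen with earlier results of these data known, so that share is a description and not evidence. Counted by rank alone, 5 of the 8 tested genes lay above all 4 vehicle arrays at 3 h, where 28.2% of all tested probe sets did, and 1 below, where 31.7% did. At 6 h 7 lay above and 1 below, beside 39.1% and 37.8%, and at 12 h 7 and 1, beside 42% in each direction. With the untested Lif and Il1b, 6, 8 and 9 of the 10 genes lay above at the successive times, and 1, 2 and 1 below. On all 3 NaF arrays Il1a, Tnf, Il6, Clcf1 and Tslp lay above every vehicle array, beside 14.7% of all tested probe sets, and Csf1 below, beside 15%. The untested Lif lay above too. Il6, Tslp, Tnf and Clcf1 were bound by the filter to lie above vehicle on some NaF array, so these counts are a description. In bulk RNA a larger share of responding cells and more RNA per cell cannot be told apart.

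The calls at 3 h were the least stable. All 4 were lost when every probe set was tested in limma, with adjusted p between 0.0761 and 0.164 (5 of the 10 genes were then higher at an unadjusted p under 0.05), and without the 0, 6 or 12 h vehicle array 1, 0 and 2 of them were left. At 12 h the number of rises was 6 without the 0, 6 or 12 h vehicle array, the gene lost being Il1a, and it was 4 when a mean log2 signal of 7 over all arrays was required, which left 5 of the genes tested.

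By the same-time difference, 1 of the 8 tested genes, Tnf, was 2.5-fold or more higher at 3 h, beside 0.272% of all tested probe sets. At 6 h 5 of the 8 were past this fold, beside 1.27%, and at 12 h 7 of the 8, all but Csf1, beside 2.77%. The untested Lif was past it at 6 and 12 h too, which made 6 and 8 of the 10 genes. Against the 0 h vehicle array in place of the same time, 6 of the 10 were past it at 12 h, since Il1a and Csf3 were not. None of the 10 was 2.5-fold or more lower at any time, where 0.366%, 1.29% and 2.09% of all tested probe sets were. The median same-time log2 difference over the 10 genes was 0.34 at 3 h, 1.54 at 6 h and 2.18 at 12 h, whereas over all tested probe sets it was -0.03 and then 0 at both later times. These counts and medians are set beside all tested probe sets as a description, since 4 of the 10 genes were tested only through their NaF arrays and 2 were not tested. The genes were also chosen with earlier results of these data known, so their shares past 2.5-fold cannot be read as evidence. Of the 10 genes, 6 were near background in vehicle, with a log2 signal below 7 on every vehicle array: Il6, Tslp, Tnf, Clcf1, Lif and Il1b.

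**Figure D1:**
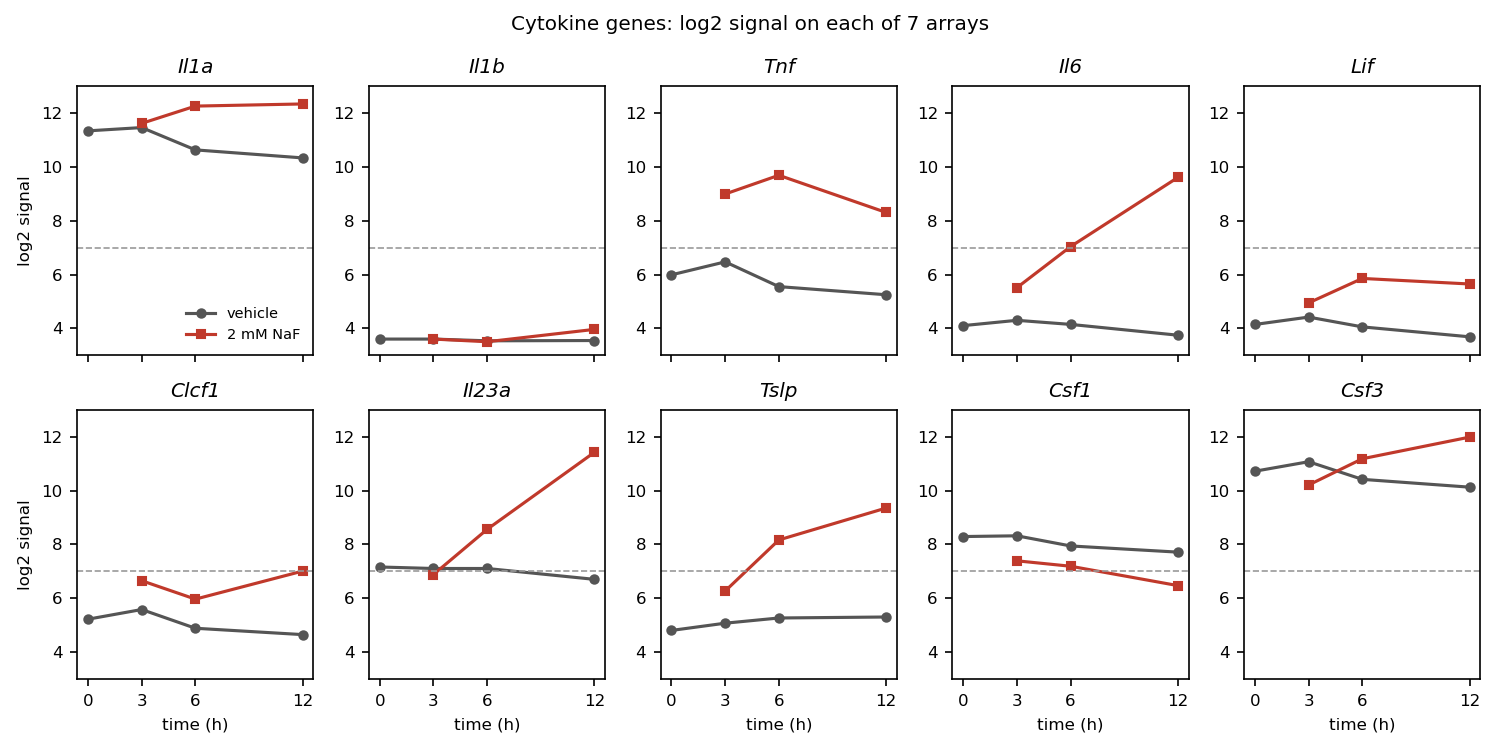
Log2 signal of each gene's probe set on the 7 arrays against time in hours, with vehicle as grey circles, 2 mM NaF as red squares and the log2 limit of 7 as a dashed line. Each point is 1 array of pooled RNA; Il6 and Il23a were highest at 12 h of NaF, with 9.61 and 11.42, Tnf at 6 h, with 9.69, and Csf1 lay below its vehicle arrays at all 3 times.

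The vehicle arrays were not flat for these genes. In vehicle, 9 of the 10 genes had a lower signal at 12 h than at 0 h and only Tslp a higher one, by 0.50 on the log2 scale, while 38.4% of all tested probe sets were lower at 12 h. The difference was -0.74 for Tnf and -0.58 for Csf1. The vehicle arrays of 6 and 12 h were the lower ones for Il1a, Tnf, Clcf1 and Csf3, and a same-time difference at 12 h is then larger than the change against the mean of all 4 vehicle arrays. For this reason both are given.

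Il1a encodes IL-1α, which is active without cleavage and is kept inside healthy epithelial cells. Its brighter probe set, 1368592_at, read 11.33, 11.46, 10.63 and 10.33 in vehicle at 0, 3, 6 and 12 h and 11.61, 12.25 and 12.33 in NaF at 3, 6 and 12 h on the log2 scale. All 3 NaF arrays lay above all 4 vehicle arrays, by a small margin at 3 h. Against the vehicle mean the log2 change was 0.68 at 3 h, 1.32 at 6 h and 1.40 at 12 h (SE 0.45), and of these only that at 12 h passed limma's test (adjusted p = 0.0383, against 0.427 and 0.0654). That call was lost without the 0, 6 or 12 h vehicle array (adjusted p = 0.0600, 0.0884 and 0.0507) and with all probe sets tested (0.110). Against the same time, the signal was 3.09-fold higher at 6 h and 4.01-fold higher at 12 h.

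The dimmer Il1a probe set, 1371170_a_at, differed in the same direction, with a smaller error. It read 8.23, 7.44, 7.54 and 7.46 in vehicle and 7.88, 9.40 and 9.76 in NaF. The 3 h NaF array lay within the vehicle range and the later ones lay above it. The log2 change against vehicle was 1.73 at 6 h and 2.09 at 12 h (SE 0.31, limma adjusted p = 0.00933 and 0.00258).

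Of the 10 genes, 6 had an entry among the RefSeq promoter sequences of the rat build GRCr8, which run from 250 bases before to 50 bases after the start of the gene: Il1a, Il1b, Tnf, Il6, Il23a and Tslp. They were searched on both strands for the letters of AP-1 (TGANTCA), NF-kB (GGG and TTTCC with any 2 letters between), CRE (TGACGTCA), C/EBP (TTGCNNAA) and the box TATAAA, which are present in 7.33%, 1.53%, 1.83%, 10.6% and 14.2% of all 33469 such promoters. In these 6 genes no match overlapped another. Shown here are those of 4 genes that rose at 12 h, 1 for each of the IL-1, TNF, IL-6 and IL-12 families, with every match in capitals. A match is a description of the letters and not a binding site.

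The Il1a promoter (chr3:136989968-136990267, minus strand) holds an AP-1 match 12 bases before the start and TATA matches 32 bases before it and, on the reverse strand, 237 bases before it:
Il1a: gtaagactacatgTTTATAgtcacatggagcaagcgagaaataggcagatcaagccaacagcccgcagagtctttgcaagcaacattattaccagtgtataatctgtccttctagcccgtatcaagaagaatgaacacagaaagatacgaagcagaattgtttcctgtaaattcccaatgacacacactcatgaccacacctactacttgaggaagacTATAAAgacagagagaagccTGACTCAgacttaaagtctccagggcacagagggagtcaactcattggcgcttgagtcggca

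The second gene of the IL-1 family, Il1b, encodes IL-1β, which needs cleavage by caspase-1 before release. Its probe set, 1398256_at, read 3.61, 3.61, 3.54 and 3.55 in vehicle and 3.61, 3.51 and 3.97 in NaF, far below the limit on every array. The same-time log2 difference was 0, -0.03 and 0.41, and it was not tested. When every probe set of the array was tested, the log2 change of 0.39 at 12 h had an adjusted p from limma of 0.0143, at a signal no higher than 3.97.

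Tnf encodes TNF, which is made as a membrane protein and shed. Its probe set 1391384_at read 5.99, 6.47, 5.55 and 5.25 in vehicle and 8.99, 9.69 and 8.30 in NaF. The 3 NaF arrays lay well above the vehicle range, and the highest was that of 6 h. Against the vehicle mean the log2 change was 3.17 at 3 h, 3.87 at 6 h and 2.49 at 12 h (SE 0.44, limma adjusted p = 0.0146, 0.00214 and 0.0046). Against the same time it was 5.73-fold, 17.5-fold and 8.30-fold higher. Every vehicle array lay below the limit, so the size of these folds depends on the background. NaF at 12 h and at 3 h did not differ beyond the error (log2 difference -0.69 ± 0.55 SE, adjusted p = 0.345).

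The other Tnf probe set, 1387691_at, did not show this. It read 5.38, 5.11, 5.34 and 5.21 in vehicle and 5.34, 6.28 and 5.50 in NaF, never reached the limit and was not tested. Its same-time log2 difference was 0.23, 0.94 and 0.29, so it too was highest at 6 h. With the mean of both probe sets as the value of the gene, the log2 change at 12 h was 1.36 in place of 2.49. The Tnf promoter (chr20:3626435-3626734, plus strand) holds a TATA match 46 bases before the start and none of the other letters:
Tnf: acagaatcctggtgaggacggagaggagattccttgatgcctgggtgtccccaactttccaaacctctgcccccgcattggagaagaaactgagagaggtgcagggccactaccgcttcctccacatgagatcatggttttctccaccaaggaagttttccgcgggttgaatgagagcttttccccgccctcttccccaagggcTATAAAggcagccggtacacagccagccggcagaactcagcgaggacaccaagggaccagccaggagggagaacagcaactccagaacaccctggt

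Il6 encodes IL-6, an inducer of fever and of the acute phase response. Its probe set, 1369191_at, read 4.11, 4.30, 4.15 and 3.75 in vehicle and 5.51, 7.04 and 9.61 in NaF. The signal was near background in vehicle, lay above it on every NaF array and was higher at each later time. At 12 h it was 58.0-fold higher than in vehicle of the same time, and at 3 h it was 2.32-fold and at 6 h 7.41-fold higher. The log2 change against the vehicle mean was 1.44, 2.96 and 5.53 (SE 0.20, limma adjusted p = 0.0146, 0.000592 and 0.000172). NaF at 12 h lay 4.09 ± 0.25 (SE) above NaF at 3 h on the log2 scale (adjusted p = 0.000794). The vehicle signals lie below the limit on every array, so the size of these folds depends on the background.

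The Il6 promoter (chr4:5894526-5894825, minus strand) holds a CRE match 162 bases before the start, a C/EBP match on the reverse strand 152 bases before it and an NF-kB match 68 bases before it, the only NF-kB and CRE matches among the 6 genes:
Il6: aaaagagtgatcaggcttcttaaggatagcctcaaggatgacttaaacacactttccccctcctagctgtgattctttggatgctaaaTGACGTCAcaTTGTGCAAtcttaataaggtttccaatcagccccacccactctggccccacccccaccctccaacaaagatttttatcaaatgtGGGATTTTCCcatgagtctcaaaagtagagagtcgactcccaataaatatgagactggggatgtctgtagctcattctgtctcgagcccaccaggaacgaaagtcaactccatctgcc

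The other genes of the IL-6 family were dim. Lif encodes leukemia inhibitory factor, and its probe set 1368804_at read 4.15, 4.42, 4.06 and 3.69 in vehicle and 4.95, 5.86 and 5.65 in NaF. Every NaF array was above the vehicle range, although none reached the limit. The same-time log2 difference was 0.53, 1.80 and 1.96. When every probe set of the array was tested, the adjusted p from limma was 0.265 at 3 h, 0.0239 at 6 h and 0.0172 at 12 h.

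Clcf1 encodes cardiotrophin-like cytokine factor 1, which signals through the receptor of ciliary neurotrophic factor. Its probe set, 1385827_at, read 5.22, 5.58, 4.89 and 4.65 in vehicle and 6.65, 5.97 and 7.01 in NaF, and it was tested only because the last value passed 7. The NaF arrays lay above the vehicle range with no steady order in time. The log2 change was 1.57, 0.88 and 1.92 at the successive times (SE 0.33, limma adjusted p = 0.0465, 0.0881 and 0.00449). The 12 h call was kept in all 9 alternatives in which the gene was tested, and the 3 h call in 5 of them.

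Il23a encodes p19, the subunit that pairs with the product of Il12b to form IL-23. Its probe set, 1387642_at, read 7.16, 7.10, 7.10 and 6.70 in vehicle and 6.88, 8.56 and 11.42 in NaF. At 3 h NaF lay within the vehicle range, and at 6 and 12 h above it. The log2 change was -0.14, 1.54 and 4.40 (SE 0.18, limma adjusted p = 0.705, 0.00247 and 0.000172), and the signal at 12 h was 26.3-fold higher than in vehicle of the same time. NaF at 12 h lay 4.54 ± 0.23 (SE) above NaF at 3 h on the log2 scale (adjusted p = 0.000794). Il12b, the partner subunit, lay near background, at 4.40 to 4.96 in vehicle and 4.66, 4.39 and 4.58 in NaF. The Il23a promoter (chr7:1308385-1308684, minus strand) held none of the letters searched, which says only that they are not in this window:
Il23a: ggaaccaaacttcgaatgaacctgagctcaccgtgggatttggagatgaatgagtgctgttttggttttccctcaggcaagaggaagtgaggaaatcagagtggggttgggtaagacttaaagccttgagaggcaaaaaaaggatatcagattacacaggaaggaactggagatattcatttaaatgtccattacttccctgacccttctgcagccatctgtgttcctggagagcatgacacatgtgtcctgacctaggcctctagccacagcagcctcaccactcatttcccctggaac

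Tslp encodes thymic stromal lymphopoietin. Its probe set, 1381070_at, read 4.81, 5.07, 5.27 and 5.304 in vehicle and 6.27, 8.17 and 9.35 in NaF. The NaF arrays lay above the vehicle range from 3 h and stood higher at each later time, whereas vehicle stayed near background. Tslp was 2.29-fold, 7.45-fold and 16.5-fold higher than in vehicle of the same time, folds whose size likewise depends on the background. The log2 change against the vehicle mean was 1.16, 3.05 and 4.24 (SE 0.19, limma adjusted p = 0.0248, 0.000565 and 0.000172), and NaF at 12 h lay 3.08 ± 0.25 (SE) above NaF at 3 h (adjusted p = 0.001).

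**Figure D2:**
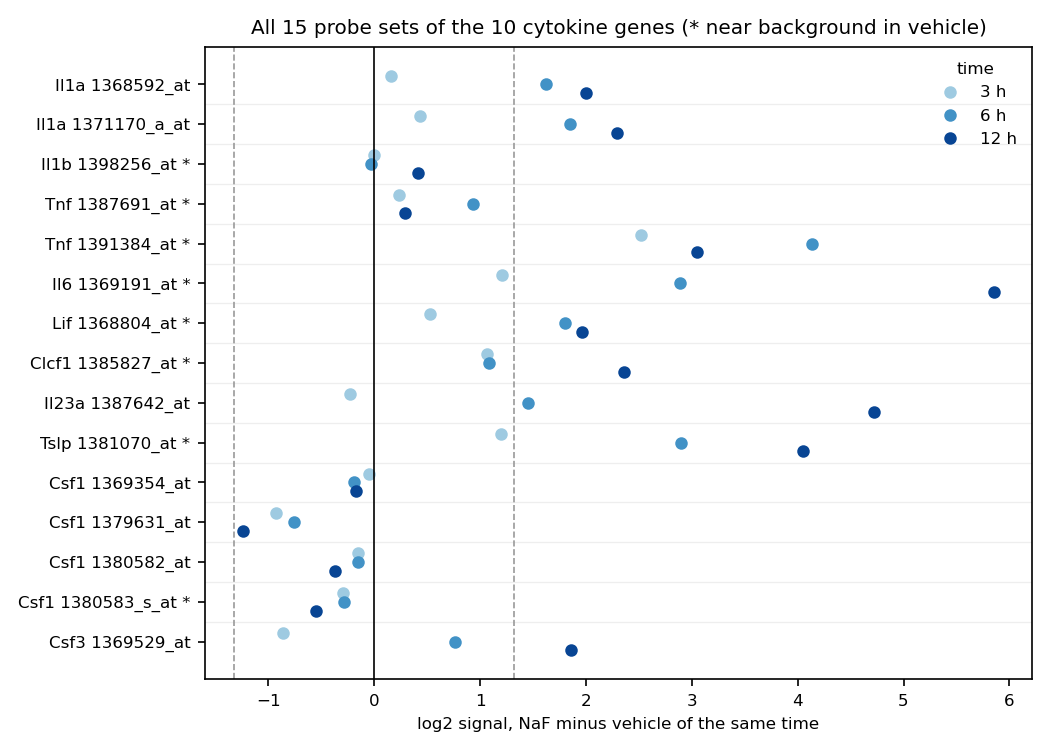
Log2 difference of NaF minus vehicle of the same time for all 15 probe sets, with 3, 6 and 12 h from light to dark blue, dashed lines at 2.5-fold either way and an asterisk where every vehicle array was below log2 7. Each point is 1 array minus 1 array; at 12 h Il6, Il23a and Tslp reached 5.86, 4.72 and 4.05, while no Csf1 probe set lay above 0.

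The colony stimulating factors went apart. Csf1 encodes M-CSF, the growth factor of macrophages, and was the only one of the 10 genes that fell. Its brightest probe set, 1379631_at, read 8.29, 8.32, 7.94 and 7.71 in vehicle and 7.39, 7.19 and 6.47 in NaF. All NaF arrays lay below all vehicle arrays. The log2 change was -0.68 at 3 h, -0.88 at 6 h and -1.60 at 12 h (SE 0.24, limma adjusted p = 0.164, 0.0363 and 0.0028). The fall at 12 h was called under all 12 alternatives, with a log2 change between -1.71 and -0.76, and the smallest was that of the mean over the gene's probe sets. The call at 6 h was lost without the 0, 3 or 6 h vehicle array.

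The other Csf1 probe sets differed less from vehicle. On 1369354_at the signals were 7.91, 7.51, 7.51 and 7.51 in vehicle and 7.46, 7.32 and 7.34 in NaF, and on 1380582_at they were 7.73, 7.26, 7.34 and 7.27 in vehicle and 7.12, 7.19 and 6.90 in NaF. Neither was called at 12 h (limma adjusted p = 0.226 and 0.0632). The untested 1380583_s_at read 6.97, 6.87, 6.75 and 6.68 in vehicle and 6.58, 6.47 and 6.13 in NaF. On each of the 4 probe sets all NaF arrays lay below all vehicle arrays, so the direction was shared and the size was not.

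Csf3 encodes G-CSF, the growth factor of neutrophils. Its probe set, 1369529_at, read 10.72, 11.07, 10.41 and 10.12 in vehicle and 10.20, 11.18 and 11.98 in NaF. The groups overlapped at 3 h, where NaF was in the lower part of the vehicle range, and only the 12 h array stood clearly above it. The log2 change was -0.38 at 3 h, 0.60 at 6 h and 1.40 at 12 h (SE 0.33, limma adjusted p = 0.563, 0.210 and 0.0140), and the last became 0.0511 with all probe sets tested. Csf3 was 1.78 ± 0.42 (SE) higher on the log2 scale at 12 h than at 3 h of NaF (adjusted p = 0.0183). This call was lost with all probe sets tested (0.0655) and without the 0 h vehicle array (0.0509).

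In the comparison of NaF at 12 h with NaF at 3 h, Il6, Il23a, Tslp and Csf3 were called higher, beside 25.1% of all tested probe sets. None was called lower by limma, beside 23.6%, and 1 gene, Csf1, was lower at an unadjusted p under 0.05. Tnf, Clcf1 and Il1a, the last at its brighter probe set, were not called (adjusted p = 0.345, 0.519 and 0.334). Il6 and Tslp, called higher here, had passed the filter only through NaF arrays. Of the 10 genes, 7 had their highest NaF signal at 12 h, Tnf and Lif had it at 6 h, and Csf1 at 3 h.

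When the 3 NaF arrays as 1 group were set against the 4 vehicle arrays, which brings the spread between NaF times into the error as well, Tnf, Tslp, Clcf1 and Il6 were called higher and Csf1 lower, beside 4.35% and 4.31% of all tested probe sets. The 4 genes called higher had passed the filter only through NaF arrays, so their share cannot be read as evidence. Il1a, Il23a and Csf3, which passed it on vehicle arrays as well, were not called (limma adjusted p = 0.0620, 0.190 and 0.381). The log2 difference was 3.18 for Tnf (limma adjusted p = 0.00838), 2.82 for Tslp (0.0375), 1.46 for Clcf1 (0.0312), 3.31 for Il6 (0.049) and -1.05 for Csf1 (0.0418). With any 1 of the vehicle arrays left out only Tnf stayed called. With time as a block none was called, the adjusted p of Tnf being 0.1003, while 5 genes were higher and 1 lower at an unadjusted p under 0.05.

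**Figure D3:**
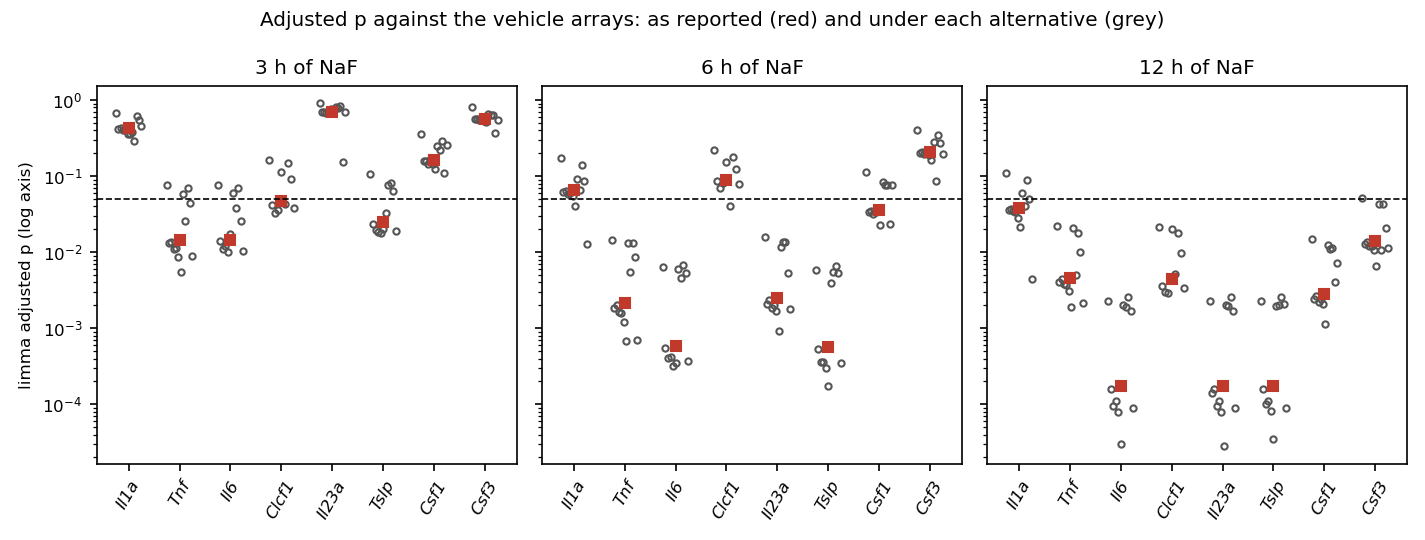
Limma adjusted p on a log axis for the 8 tested genes at 3, 6 and 12 h of NaF against the vehicle arrays, with red squares for the value as reported, grey circles for each alternative in filter, scaling, variance, gene value or vehicle array left out, and a dashed line at 0.05. At 12 h every circle of Il6, Il23a, Tslp, Tnf, Clcf1 and Csf1 lies under the line, with a highest value of 0.0220, while those of Il1a reach 0.110.

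Few receptors of these cytokines could be measured, and the larger changes among them were falls. Of 16 listed receptor genes on the array 4 were tested, of which 2 were called lower at 3 h, 2 lower and 1 higher at 6 h, and 1 lower and 1 higher at 12 h. Il1r1, the signaling receptor of IL-1, had a log2 change of -0.59, -1.35 and -1.03 (SE 0.09, limma adjusted p = 0.0206, 0.000596 and 0.000503). Tnfrsf1a, the main TNF receptor of epithelium, had -0.86, -0.76 and -0.22 (SE 0.09, adjusted p = 0.00827, 0.00285 and 0.0915), so the fall was called at 3 and 6 h. Il6st, the gp130 chain, was called higher at 6 and 12 h by only 0.27 and 0.22 on the log2 scale. The median change of the tested receptors at 12 h was -0.17.

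Of 27 other genes of the same cytokine families on the array, 4 were tested, of which limma called 2 lower at 12 h and none higher, none being higher at an unadjusted p under 0.05 either. Il36rn, an antagonist of the IL-36 receptor, had a log2 change of -1.65 at 12 h (SE 0.09, adjusted p = 0.000193), and Ltb, lymphotoxin β, of -0.61 (SE 0.12, adjusted p = 0.0061). Csf2, which encodes GM-CSF, lay 1.27 and 1.26 above vehicle of the same time at 6 and 12 h, but its vehicle arrays ranged from 7.05 to 8.47 and it was not called (adjusted p = 0.215 and 0.490). Il1rn, the IL-1 receptor antagonist, was not called at any time, with a log2 change of -0.47 at 12 h (adjusted p = 0.136).

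Among 19 tested genes for the processing of these cytokines and for their receptor adaptors, 6 were called higher and 7 lower at 12 h, and their median change was -0.05. Pycard, the adaptor that brings caspase-1 into the inflammasome, fell by 2.62 on the log2 scale (SE 0.08, limma adjusted p = 0.000172), and Furin, a convertase of the secretory pathway, fell by 1.09 (adjusted p = 0.000293). Irak2, a kinase of the IL-1 receptor complex, rose by 1.40 (SE 0.22, adjusted p = 0.00318), and Irak3, which restrains that complex, by 0.83 (adjusted p = 0.000745). Irak2 lay at 6.11 to 6.75 in vehicle and reached the limit only on NaF arrays. Its passing of the filter already required a difference, so its place among the rises cannot be read as evidence. Adam17, the enzyme that sheds TNF, changed by 0.04 at 12 h and was not called (adjusted p = 0.665). Casp1 lay at background, at 2.93 to 3.01 in vehicle and 2.95 to 2.99 in NaF.

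Of 18 tested genes for NF-kB subunits, inhibitors and feedback targets, 2 were called higher at 3 h, 6 higher and 2 lower at 6 h, and 7 higher and 1 lower at 12 h, when the median change was 0.29. Icam1, an adhesion molecule and NF-kB target, had a log2 change of 1.06, 1.57 and 0.98 (SE 0.19, limma adjusted p = 0.0300, 0.00273 and 0.00672). Like Tnf it was highest at 6 h. At 12 h Nfkbib, an inhibitor of NF-kB, rose by 0.91, Birc3, an inhibitor of apoptosis, by 0.87 and Nfkbiz, an inducible member of the same inhibitor family, by 0.71, and Tnip1, which restrains NF-kB, fell by 0.50. Of 18 tested genes of other inflammatory mediators, 9 were called higher and 4 lower at 12 h, with a median of 0.59. Cxcl2, a neutrophil chemokine, rose by 3.00 (SE 0.66, adjusted p = 0.0103) and Plaur, the urokinase receptor, by 1.89 (SE 0.13, adjusted p = 0.000277), as did S100a8, a neutrophil-type calcium-binding protein that stressed epithelium also makes, by 1.68 (SE 0.13, adjusted p = 0.000353), whereas Ccl7, a monocyte chemokine, fell by 1.70 (SE 0.29, adjusted p = 0.00409). The counts of all these lists stand beside the shares of all tested probe sets called higher and lower, which were 2.88% and 5.91% for 3 h, 16.9% and 21.5% for 6 h, 29.7% and 30.8% for 12 h.

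**Figure D4:**
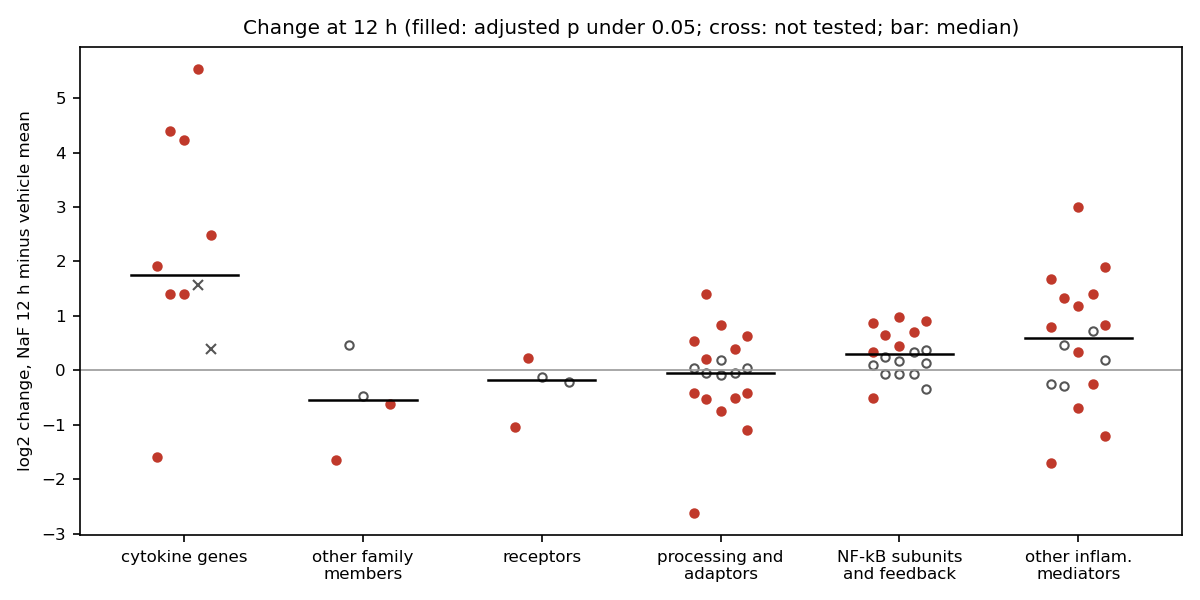
Log2 change at 12 h of NaF against the vehicle mean for the 10 cytokine genes and for the tested genes of 5 related lists, with filled red circles for an adjusted p under 0.05, open circles for other tested genes, crosses for the untested Lif and Il1b and a bar at the median. The median of the cytokine genes was 1.75, beside -0.17 for the receptors and 0.29 for the NF-kB genes.

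The patterns most like that of Il6 over the 7 arrays, by Pearson's correlation over all tested probe sets with 1 symbol, were those of Cct6a (r = 0.9975), Ttc9c (0.9974), Ccnl2 (0.9969), mrpl9 (0.9962) and Tmem39a (0.9960). The likeness is one of shape and not of size, since Cct6a lay only 0.20 above vehicle of the same time at 12 h, and Tmem39a 1.86. Most like Tnf were Icam1 (0.9942), Celf1 (0.9937), Noct (0.9920), Csrnp2 (0.9911) and Runx1 (0.9909), with a same-time log2 difference at 6 h of 1.66 for Icam1 and 2.69 for Noct. These values are descriptions over 7 arrays, with no replicate of a condition, and any gene that separates treated from vehicle arrays in steps of time will correlate highly.

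Other measures moved with the treatment. Of the 17 tested epithelial markers 10 were called lower and 1 higher at 12 h, beside 30.8% and 29.7% of all tested probe sets. The summed linear signal of the epithelial markers lay between 82320 and 84216 on the vehicle arrays and between 70248 and 84621 on the NaF arrays. Over all leukocyte markers the summed linear signal was 1770 to 1977 in vehicle and 1383 to 1853 in NaF, so the ranges overlapped. Cd14 and S100a9, with vehicle means of 10.06 and 8.87 on the log2 scale, make up most of this sum. The only tested leukocyte markers went opposite ways at 12 h: Cd14, which was called lower at all 3 times, had a log2 change of -0.74, -1.28 and -0.70, and S100a9 was called higher at 12 h, by 0.84. Vim, the tested fibroblast marker, fell by 1.19 at 12 h. The log2 signal of 5S rRNA was 4.90 to 5.46 in vehicle and 5.67, 6.65 and 6.00 in NaF at 3, 6 and 12 h. The part of these markers and of the 5S signal in the cytokine results was not tested.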

How the data were processed

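Per the labels and the methods, each of 7 conditions was a pool of RNA from 3 independent experiments, hybridized as biotin-labeled cRNA to an Affymetrix rat genome array and analyzed in GeneSpring GX. How GeneSpring summarized and normalized the intensities, and its version, are given in none of the sources used here. The files hold deposited log2 signals, normalized between arrays by the authors, and no further scaling was applied. Such normalization sets the arrays to a like distribution, so a shift of the whole transcriptome would not show. Of 31099 probe sets, 20832 had 1 symbol in the platform annotation, 436 had several and 9831 had none, and those with several were not used to name a gene. The member genes and all gene lists were chosen with earlier results of these data known.

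Tests used limma 3.58.1 (lmFit and eBayes) in R 4.3.3, with 57 control probe sets left out, 3 residual and 2.67 prior degrees of freedom and a median standard error of 0.0863 on the log2 scale. Precision is limited by the number of arrays, each of which is a pool. The p-values of single NaF arrays rest on the moderated spread among the 4 vehicle arrays. These arrays were taken at 0, 3, 6 and 12 h and the fit has no term for time, so their spread holds drift of vehicle over time and is not a replicate error. The p-values of the 3 NaF against the 4 vehicle arrays also hold the spread between NaF times. Of the tested probe sets, 12.8% had equal values on some vehicle arrays, 3 probe sets of the cytokine genes among them, and 6 had no vehicle variance at all. The named genes were the members, from each list up to 4 called genes whose 12 h change was largest, and the 5 most like Il6 and Tnf. Other genes (Csf2, Il1rn, Il12b, Adam17, Casp1, Tnfrsf1a, Tnip1, Ptprc) were named after their values were seen. Promoter sequences were those of RefSeq for GRCr8. The fits were tested on simulated data. Figures were drawn with matplotlib 3.10.9. Alternatives were other filters, scalings, baselines and gene values, a variance trend, a 2-fold threshold, time as a block, each array left out and the t-test that the methods name for other experiments.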

Additional observations from a re-analysis of the deposited data

Results flagged for a closer look

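Among the 4 vehicle arrays, 1 array stood far from the other 3 for 4 of the probe sets, and chance alone marks about 1 in 20 groups of 4 values without ties. That rate does not apply to Csf1 at 1369354_at, with equal vehicle values at 3, 6 and 12 h, or to Il23a, with equal ones at 3 and 6 h. The 0 h vehicle array was high for Il1a at 1371170_a_at, with a log2 signal of 8.23, and for Csf1 at 1369354_at and 1380582_at, with 7.91 and 7.73. The 12 h vehicle array was low for Il23a, with 6.70. The distances of these arrays widen the error of the comparisons with vehicle.

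The log2 change of 5 probe sets differed between 12 and 3 h of NaF in limma. The difference, 12 h minus 3 h, was 4.54 for Il23a (adjusted p = 0.000794), 4.09 for Il6 (0.000794), 3.08 for Tslp (0.001), 1.88 for Il1a at 1371170_a_at (0.0121) and 1.78 for Csf3 (0.0183). At the brighter Il1a probe set, 1368592_at, it was 0.72 (0.334).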

How the results depend on the processing

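No result changed its direction under any alternative tried. The number of genes called higher at 3 h, 4 as reported, was 0 with no filter, 1 with a mean log2 signal of 7 or more and 0 to 3 with 1 vehicle array left out. The number called higher at 6 h, 4 as reported, was 2 with the mean filter and 4 or 5 under the other alternatives. At 12 h, where it was 7, it was 4 with the mean filter, 6 with a limit of 8 or as many probe sets as the study counted, and 6 to 7 with 1 vehicle array left out. The 1 gene called lower at 6 h was 0 with no filter and when the probe sets of a gene were averaged, and 0 to 1 with 1 vehicle array left out. For NaF at 12 h against 3 h, the mean filter left 2 of 4 genes higher, there were 5 when probe sets were averaged and 3 to 4 with 1 vehicle array left out, and 1 gene, Csf1, in place of 0 was called lower with the mean filter, a limit of 8, quantile normalization or a variance trend, and 0 to 1 with 1 vehicle array left out. With the mean filter 5 of the 8 genes were tested and with a limit of 8 there were 7, which lowers the counts by itself. With as many probe sets as the study counted, Clcf1, whose highest signal was 7.01, was not tested either, which likewise lowers the counts. For 3 NaF against 4 vehicle arrays, 4 higher and 1 lower became 2 and 0 with no filter, 0 and 0 with time as a block (5 and 1 unadjusted), 0 and 0 by the methods' t-test after Benjamini-Hochberg (6 genes before it), and 1 to 6 and 0 to 1 with 1 array left out. By that t-test 3147 of the 11745 tested probe sets were under 0.05 before the adjustment and 37 after it. The other counts under alternatives and at an unadjusted p are given without a share over all probe sets, so they are descriptions. By the same-time fold, 1 gene higher at 3 h became 3 against the vehicle mean, 4 against the 0 h array and 4 at 2-fold, and 0 genes lower at 12 h became 1 (Csf1) in each of these, while the 6 higher at 6 h ranged from 5 to 7 and the 8 higher at 12 h from 6 (0 h array) to 8. The cause of these shifts was not tested beyond the number of genes tested. The fit with time as a block is the paired analysis of the 3, 6 and 12 h arrays. Pairing by replicate number could not be made, since each NaF group has 1 array.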
